A study of Rattus norvegicus with 12 samples.

Results

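The genes described here were those whose signal in primary rat microglia was high after 6 h in medium containing alpha-synuclein and close to the control again at 24 h. They were chosen by the measured values themselves. On quantile normalized log2 signals, a probe was a member when the mean of the 3 alpha-synuclein arrays exceeded the mean of the 3 control arrays by at least 1 at 6 h (a 2-fold difference) and the same difference at 24 h lay between -0.5 and 0.5. The rule found 267 of the 22523 probes on the array, and these made up 43.4% of the 615 probes that met its 6 h part. Of the 267 members, 223 were matched to a gene, giving 222 genes since Plekhm2 had 2 probes, and 44 had no gene name here. Because the rule used the differences between media at both times, those differences are given as a description, with no test.

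The 12 samples were total RNA from cultured primary rat microglia, the immune cells that live in the brain, hybridised to Illumina bead arrays with 3 arrays in each of 4 groups. The microglia were kept for 6 h or 24 h in medium from the human neuroblastoma line SH-SY5Y, differentiated and then infected with adenovirus carrying alpha-synuclein (the medium is called aSCM) or LacZ (LZCM, the control). Infection was at a multiplicity of 100, and the cells' serum-free medium was collected after 18 h, cleared of debris by centrifugation and used as a 5-fold concentrate; the microglia themselves carried no transgene. All 4 groups thus received concentrated medium of infected human cells, and no group without conditioned medium was analysed here. The sources used here do not give the strain, age or number of animals, nor whether the 3 arrays of a group were separate cultures, so a p-value covers only the spread among these arrays, which may be technical. The preparation of medium was not a term of any fit.

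The arrays of a group were alike, with correlations of 0.996 to 0.998 over all probes within groups, and 10871 to 11443 probes per array stood above background. Of 12 microglial and macrophage markers on the array, 10 were above background on all 12 arrays, among them Aif1, Itgam, P2ry12 and Trem2. Their list averaged a log2 signal of 12.19 to 12.23 on the LZCM arrays and 11.60 on the aSCM arrays at 6 h, and 11.76 to 11.80 and 11.40 to 11.49 at 24 h. Its markers did not move together. In aSCM minus LZCM, P2ry12 stood at -2.87 at 6 h and -2.25 at 24 h, and Trem2 at -0.74 and -2.24. Itgam stood at 0.21 and 1.69, and Spi1 at 0.48 and 1.56. Of the 12, the limma fit called 2 higher and 8 lower at 6 h, and 3 and 6 at 24 h. Of all genes it called 27.8% and 35.3% at 6 h, and 32.8% and 30.1% at 24 h. Astrocyte markers (3 of 7 above background on all arrays, Gfap included, Aqp4 and Gjb6 on none) averaged 8.24 to 8.28 in LZCM and 7.84 to 7.86 in aSCM at 6 h, and 8.74 to 8.79 and 7.65 to 7.76 at 24 h. Slc1a3, the brightest of them, had means of 12.20 and 10.44 at 6 h and 12.57 and 9.855 at 24 h. Gfap had means of 9.82 and 9.46 at 6 h and 12.03 and 9.01 at 24 h. Markers of the oligodendrocyte lineage (6 of 10) averaged 8.96 to 9.05 and 8.50 to 8.61 at 6 h and 9.51 to 9.79 and 8.26 to 8.36 at 24 h. Olig1, the brightest of them, had means of 12.56 and 11.37 at 6 h and 14.69 and 11.96 at 24 h. Neuronal markers (6 of 8) averaged 7.996 to 8.11 and 8.09 to 8.16 at 6 h and 8.37 to 8.44 and 7.73 to 7.77 at 24 h. Stmn2, the brightest of them, had means of 10.19 and 9.20 at 6 h and 11.41 and 8.41 at 24 h. Nefl moved the other way, with 8.59 and 9.55 at 6 h and 7.78 and 8.48 at 24 h. Of the 8 neuronal markers, 2 were called higher and 2 lower at 6 h, and 2 and 5 at 24 h. Markers of other blood leukocytes (1 of 8; Cd3d, S100a9, Ms4a1 and Ncr1 on none) averaged 6.84 to 6.89 and 6.89 to 6.92 at 6 h and 6.75 to 6.79 and 7.17 to 7.27 at 24 h, and among them S100a8 differed by 0.36 at 6 h and 2.52 at 24 h. Markers of endothelial cells and fibroblasts (2 of 7; Col1a1, Col3a1, Lum and Cdh5 on none) averaged 7.14 to 7.19 and 7.07 to 7.16 at 6 h and 7.35 to 7.38 and 6.97 to 7.04 at 24 h. Col1a2, the brightest of them, had means of 9.65 and 9.16 at 6 h and 10.93 and 8.07 at 24 h. Of the 3 tested, 0 were called higher and 1 lower at 6 h, and 2 and 1 at 24 h. These lists moved with medium and time, and their part in the members' values was not tested. In such bulk RNA, fewer cells of a type and less RNA per cell cannot be told apart.

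Microglia and macrophages sense damage signals and foreign or aggregated proteins through surface receptors, among them Toll-like receptors, and answer in waves. A first wave holds immediate-early transcription factors, secreted cytokines and the inhibitors that switch the same pathways off, and many of its transcripts are short-lived. Later waves hold interferon-inducible genes and metabolic genes. Cells short of amino acids, or with stressed protein folding, also raise translation of the transcription factor ATF4, whose known targets include amino acid transporters, synthetic enzymes and aminoacyl-tRNA synthetases, and growth signals through MYC raise the factors that build ribosomes.

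Across the 267 members, the median log2 signal per array was 8.44 ± 0.05 (SD, n = 3) in LZCM and 10.02 ± 0.04 in aSCM at 6 h, and 8.32 ± 0.03 and 8.44 ± 0.01 at 24 h. The excess of aSCM at 6 h had a median of 1.32, or 2.50-fold, and ran from 1.00 to 4.20, or 18.4-fold. It was at least 2 for 38 members and at least 3 for 8. At 24 h the difference had a median of 0.14, was above 0 for 180 members and below 0 for 87, and was within 0.1 of 0 for 61. The median member kept 9.5% of its 6 h log2 difference. The 24 h values depended on the scaling: for the same 267 probes the median was 0.03 without normalization between arrays, with 146 above 0 and 121 below and 1.8% kept, and 0.21 with 75th percentile scaling, with 203 and 64 and 13.5% kept. Over all 12351 probes tested, the median differences were -0.02 at 6 h and 0.03 at 24 h.

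**Figure D1:**
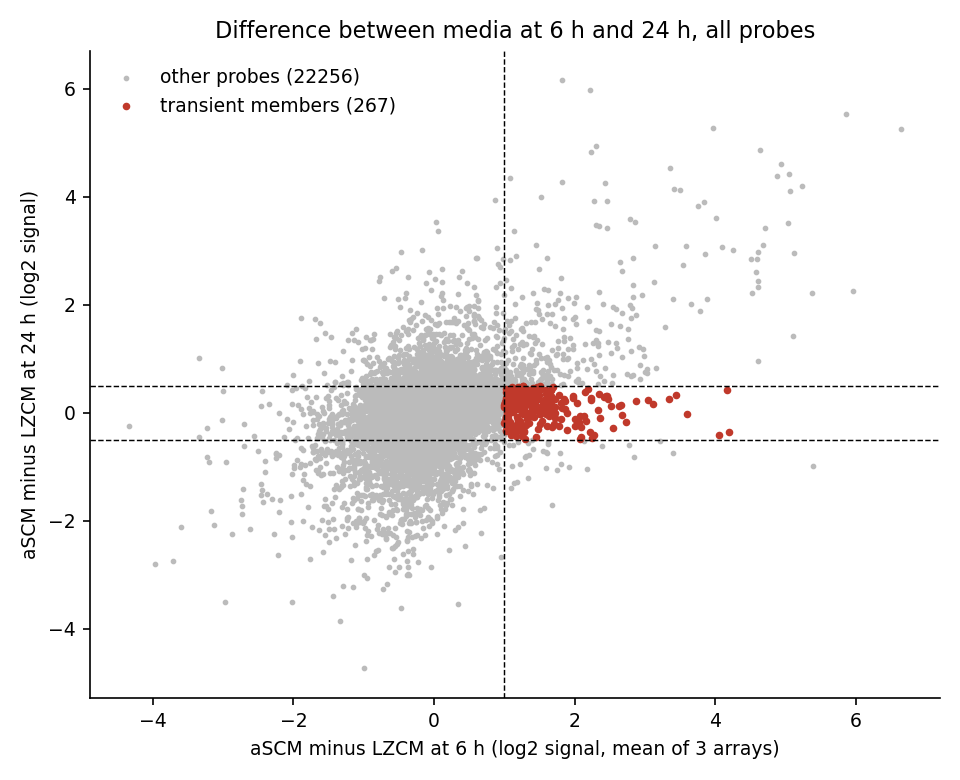
Difference in log2 signal between aSCM and LZCM at 6 h (horizontal axis) and at 24 h (vertical axis) for each of the 22523 probes, as means of 3 arrays per group. Dashed lines mark the thresholds of the rule, and the 267 members (dark points) fill the band to the right of 1 and between -0.5 and 0.5, reaching 4.20 at 6 h.

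The 3 aSCM values lay above the 3 LZCM values at 6 h for all 267 members, as the rule nearly ensures, against 28.1% of the probes tested. At 24 h the media did not overlap, in either direction, for 158 members, where 64.4% of the probes tested did so. The fit called all 267 members higher at 6 h, where it called 25.9% of probes higher and 32.2% lower. At 24 h it called 112 members higher and 36 lower, where it called 30.8% and 29.2% of all probes. Nothing is read from these counts, since the rule used the same contrasts. Just inside the 6 h threshold stood Cdca4 at 1.00, and just outside it the unnamed probe ILMN_1351141 at 0.9998 and Brd2 at 0.99. Just inside the 24 h threshold stood Camk1d at 0.50 and Chka at -0.49, and just outside it Alkbh1 at 0.503 and Errfi1 at -0.51.

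Of the members, 209 were above background on all 12 arrays. For 20 members no LZCM array at 6 h was above background, so the difference has only a lower bound, taken against the dimmest signal that counted as above background. These bounds ran from 1.60-fold to 7.69-fold, and 13 of the 20 were above background on the 3 aSCM arrays at 6 h and on no other array. Those 13 passed the filter on dim probes through the group in which the rule asked them to be high, and no 24 h difference is given for any of them singly. They stay in the medians and counts over members; without them the median 24 h difference was 0.16, above 0 for 170 of 254 members and below 0 for 84, and that of the secreted members below was 0.05. Beside the genes given by role below, the bounds were 3.95-fold for Lad1, 2.74 for Twist2, 2.49 for Zc3h12c, 2.48 for Gfpt2 and 2.19 for Cckbr, and between 1.87 and 2.05 for Tcp11, Thbd, Phlda2 and Cpb2.

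Differences below are aSCM minus LZCM on the log2 scale unless a fold is given, and the genes are ordered by role, in groups put together after the values were seen. Among secreted signals, Gdf15 had the largest early excess of all members. This gene, a stress-induced cytokine of the transforming growth factor family, read 9.96, 10.15 and 9.91 on the LZCM arrays and 14.28, 14.20 and 14.13 on the aSCM arrays at 6 h, and 10.39, 10.54 and 10.83 and 10.29, 10.14 and 10.28 at 24 h. The aSCM arrays at 6 h stood apart from the other 9, 18.4-fold above LZCM (log2 4.20 ± 0.10 SE), and the aSCM arrays at 24 h lay below those of LZCM, with a difference of -0.35. Il23a, the p19 subunit of interleukin-23, which supports Th17 cells, read 6.79, 6.96 and 6.84 on the LZCM arrays and 10.13, 9.99 and 9.61 on the aSCM arrays at 6 h, and 6.91, 7.09 and 6.86 and 7.26, 7.10 and 7.24 at 24 h. It was not above background on any LZCM array at 6 h, and aSCM was at least 7.69-fold higher then. Il33, an alarmin that signals through ST2, read 8.67, 8.50 and 8.52 on the LZCM arrays and 10.98, 10.95 and 11.04 on the aSCM arrays at 6 h, and 8.03, 8.22 and 8.10 and 8.22, 8.42 and 8.56 at 24 h, a difference of 2.42 at 6 h and 0.28 at 24 h.

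Vascular and epidermal growth factor ligands were also members. Adm, the vasodilator peptide adrenomedullin, read 8.73, 8.94 and 8.77 on the LZCM arrays and 10.93, 11.13 and 11.02 on the aSCM arrays at 6 h, and 8.81, 8.69 and 8.90 and 8.48, 8.47 and 8.39 at 24 h. Hbegf, a ligand of the epidermal growth factor receptor, read 9.60, 9.54 and 9.27 on the LZCM arrays and 11.54, 11.54 and 11.51 on the aSCM arrays at 6 h, and 9.15, 9.08 and 9.15 and 9.02, 8.99 and 8.86 at 24 h. For both genes the 6 h aSCM arrays were the 3 highest of the 12 and the difference reversed in sign by 24 h, from 2.22 to -0.35 for Adm and from 2.06 to -0.17 for Hbegf. The related ligands Areg and Ereg were smaller, at least 2.67-fold for Areg, and 1.30 on the log2 scale for Ereg, which was above background on 1 of 3 LZCM arrays at 6 h. Vegfa, the angiogenic factor, differed by 1.29 at 6 h and 0.42 at 24 h, and Pdgfa by 1.34 and -0.06. Osm and Lif, cytokines that signal through gp130, differed by 1.22 and 1.03 at 6 h; like Edn1, Lif was above background on 1 of 3 LZCM arrays then. Edn1, the vasoconstrictor endothelin-1, differed by 1.19, and Tnfsf15, a tumour necrosis factor family ligand, by 1.57.

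Both chemokines among the members were dim outside the 6 h aSCM arrays. Xcl1, which attracts cells with the receptor XCR1, read 6.74, 6.74 and 6.68 on the LZCM arrays and 8.93, 8.96 and 9.02 on the aSCM arrays at 6 h, and 7.05, 7.07 and 6.97 and 6.61, 6.58 and 6.49 at 24 h. It was at least 4-fold higher in aSCM at 6 h, and at 24 h the order was turned, with the LZCM arrays above background and the aSCM arrays not. Ccl22, a ligand of CCR4, was at least 1.87-fold higher at 6 h and was above background on no other group's arrays. Ifnb1, which encodes interferon-beta, read 6.86, 6.82 and 6.75 on the LZCM arrays and 8.61, 8.44 and 8.29 on the aSCM arrays at 6 h, and 6.70, 6.84 and 6.70 and 6.98, 6.66 and 6.87 at 24 h, at least 2.78-fold higher in aSCM at 6 h. Only the 6 h aSCM arrays were above background for it. Pgf, placental growth factor, was likewise above background in that group alone, at least 2.83-fold over LZCM. Over the 18 secreted members the median difference was 1.57 at 6 h and 0.07 at 24 h.

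The promoter of Ifnb1 is shown because the gene is the type I interferon among the members. Capitals mark an NF-kB motif, searched on both strands. The sequence is from RefSeq (GRCr8), chr5:108067438-108067737 (-) strand, read 5′ to 3′, and runs from position -250 to 49 with the gene start as 0.
Ifnb1: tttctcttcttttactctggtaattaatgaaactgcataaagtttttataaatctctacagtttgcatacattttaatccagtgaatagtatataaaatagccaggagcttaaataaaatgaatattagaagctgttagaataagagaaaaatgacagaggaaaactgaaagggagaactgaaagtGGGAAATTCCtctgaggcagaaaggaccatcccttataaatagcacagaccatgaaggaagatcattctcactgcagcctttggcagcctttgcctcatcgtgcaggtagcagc
An NF-kB motif was present in the same window of 4.38% of 19005 protein-coding genes, in 5.06% of the 7158 genes with a tested, named probe and a promoter in the table, and in 9 of the 186 member genes with a promoter in the table (4.84%). A match describes these letters and is not evidence of binding.

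**Figure D2:**
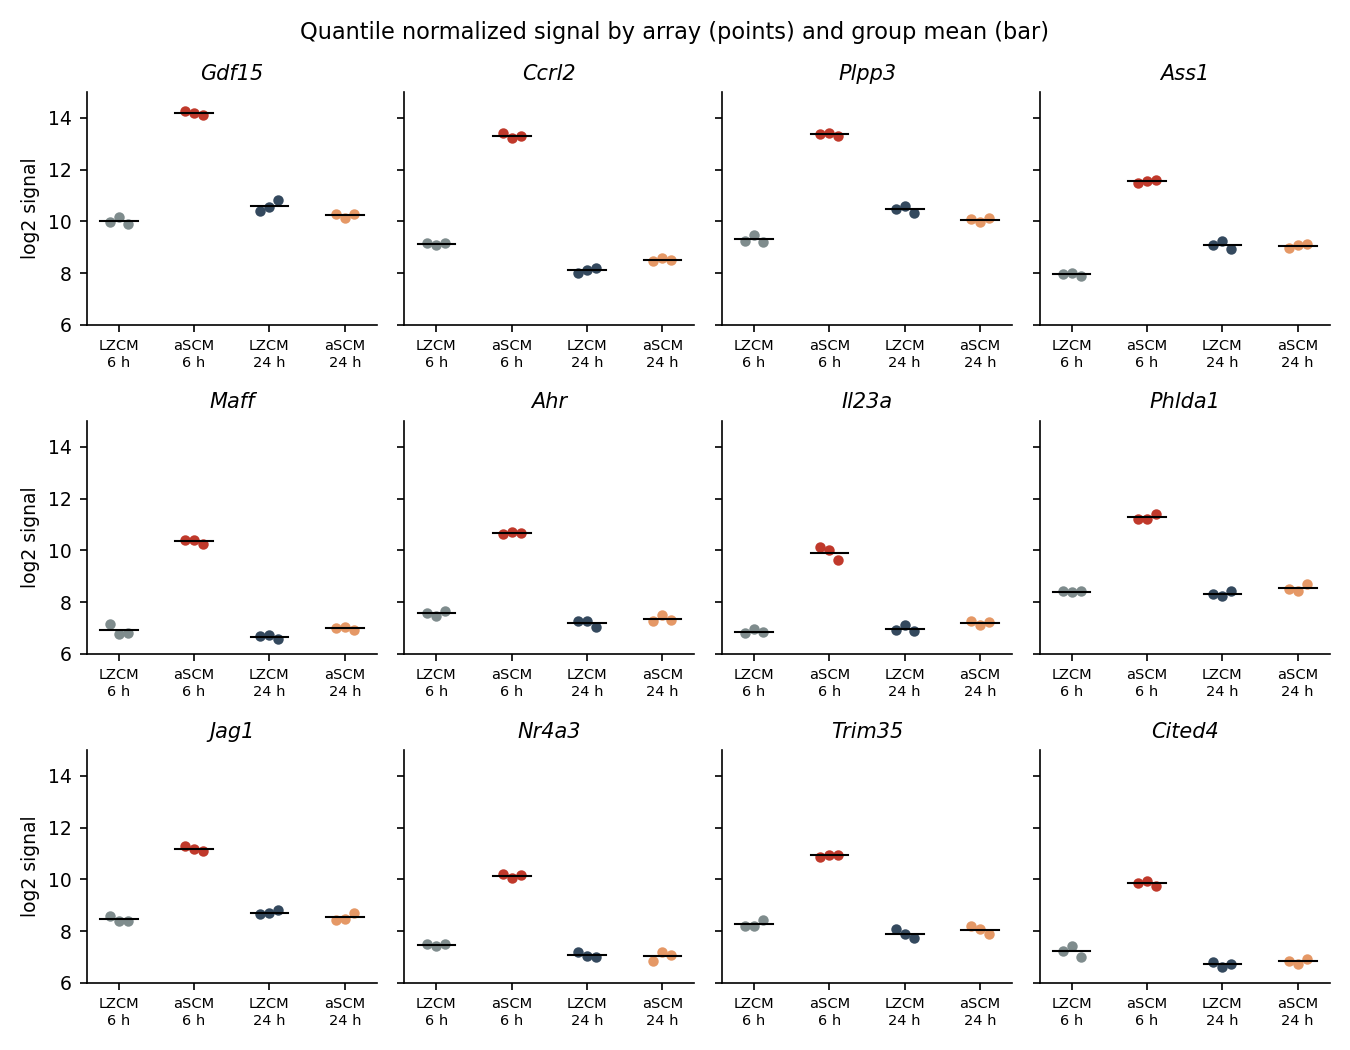
Quantile normalized log2 signal (vertical axis) on each array (points) with the mean of 3 arrays (bar) for the 12 named members with the largest difference at 6 h, in LZCM and aSCM at 6 h and 24 h. In every panel the 3 aSCM arrays at 6 h lie above all 9 others; the level of one gene is not comparable with that of another.

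Among receptors, Ccrl2 had the largest excess. This receptor binds chemerin and does not signal in the classical way. It read 9.16, 9.10 and 9.15 on the LZCM arrays and 13.40, 13.23 and 13.29 on the aSCM arrays at 6 h, and 7.98, 8.13 and 8.20 and 8.47, 8.58 and 8.52 at 24 h. The 6 h aSCM arrays were 18.0-fold above LZCM (log2 4.17 ± 0.07 SE), and the difference at 24 h, 0.42, had the same sign. Jag1, a Notch ligand carried on the cell surface, read 8.59, 8.37 and 8.41 on the LZCM arrays and 11.29, 11.17 and 11.10 on the aSCM arrays at 6 h, and 8.64, 8.69 and 8.80 and 8.42, 8.45 and 8.72 at 24 h, a difference of 2.73 at 6 h and -0.18 at 24 h. Adora2b, the low-affinity adenosine receptor, differed by 2.46 and 0.31, and 2 of 3 LZCM arrays at 6 h were above background for it.

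The other surface members had smaller differences. Lrp8, a receptor for reelin and apolipoprotein E, differed by 1.68 at 6 h and -0.02 at 24 h. The heparan sulphate proteoglycans Sdc1 and Sdc4 differed by 1.63 and 1.47 at 6 h. Tnfrsf12a, the receptor of the cytokine TWEAK, went from 1.45 at 6 h to -0.45 at 24 h, near the lower edge that the rule allows. Over the 17 surface members the median was 1.37 at 6 h and 0.05 at 24 h.

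Transcription factors included several that respond within hours to stress or cytokines. Maff, a small MAF protein that pairs with NRF2 and other partners, read 7.14, 6.78 and 6.82 on the LZCM arrays and 10.41, 10.41 and 10.25 on the aSCM arrays at 6 h, and 6.68, 6.73 and 6.56 and 6.99, 7.05 and 6.91 at 24 h. Outside the 6 h aSCM arrays it was near background, being above it on 1 of 3 LZCM arrays at 6 h, and its differences were 3.45 ± 0.09 at 6 h and 0.32 at 24 h. Ahr, the ligand-activated aryl hydrocarbon receptor, read 7.58, 7.44 and 7.65 on the LZCM arrays and 10.61, 10.71 and 10.69 on the aSCM arrays at 6 h, and 7.28, 7.27 and 7.05 and 7.28, 7.49 and 7.29 at 24 h, an 8.64-fold difference at 6 h that stood at 0.16 (log2) by 24 h. Nr4a3, an orphan nuclear receptor and immediate-early gene, read 7.49, 7.41 and 7.50 on the LZCM arrays and 10.21, 10.05 and 10.16 on the aSCM arrays at 6 h, and 7.19, 7.02 and 7.005 and 6.86, 7.17 and 7.07 at 24 h, with 2.68 at 6 h and -0.04 at 24 h. In each of these genes the 6 h aSCM arrays were the 3 highest.

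Myc, which drives growth and ribosome production, read 10.22, 10.28 and 10.28 on the LZCM arrays and 12.04, 12.24 and 12.17 on the aSCM arrays at 6 h, and 10.88, 10.92 and 10.85 and 10.51, 10.48 and 10.68 at 24 h. Its 6 h difference was 1.89, and by 24 h the aSCM arrays lay below LZCM, at -0.33. Atf4, the main effector of amino acid shortage, read 11.86, 11.78 and 11.85 on the LZCM arrays and 13.68, 13.62 and 13.87 on the aSCM arrays at 6 h, and 11.33, 11.38 and 11.24 and 11.30, 11.33 and 11.32 at 24 h, a difference of 1.90 at 6 h. By 24 h its media differed by less than 0.01. Kdm6b, a histone H3 lysine 27 demethylase induced in activated macrophages, went from 2.28 to -0.41, and Klf4 and Klf6, zinc finger factors, from 2.24 to 0.27 and from 1.55 to 0.16. Mafk, Nfil3, Ier2 and Ier5 differed by 1.66, 1.48, 1.37 and 1.01 at 6 h, Cited4 by 2.63, Snai1 by 1.40 and Creb1 by 1.10. The 22 factors and chromatin regulators had medians of 1.49 and 0.14 at the 2 times.

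The promoter of Maff is shown because this gene had the largest difference among the transcription factors. Capitals mark a cAMP response element (TGACGTCA) and an E-box (CACGTG), the core bound by MYC and related factors. The sequence is RefSeq GRCr8, chr7:112792537-112792836 (+) strand, read 5′ to 3′ over the same window.
Maff: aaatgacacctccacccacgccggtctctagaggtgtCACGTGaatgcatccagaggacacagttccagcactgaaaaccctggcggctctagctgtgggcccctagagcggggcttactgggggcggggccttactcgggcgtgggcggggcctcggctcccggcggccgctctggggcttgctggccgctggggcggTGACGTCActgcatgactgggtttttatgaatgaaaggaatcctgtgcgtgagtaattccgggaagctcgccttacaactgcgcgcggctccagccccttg
The response element was present in 2.22% of all protein-coding promoters, 3.30% of those of the 7158 tested genes and 9 of 186 member promoters (4.84%), and the E-box in 7.27%, 9.37% and 22 of 186 (11.8%).

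Regulators of signalling formed a group of 29 with medians of 1.43 at 6 h and 0.07 at 24 h. Phlda1, a pleckstrin-domain protein linked to apoptosis and receptor tyrosine kinase signalling, read 8.41, 8.39 and 8.41 on the LZCM arrays and 11.21, 11.21 and 11.40 on the aSCM arrays at 6 h, and 8.31, 8.24 and 8.42 and 8.50, 8.43 and 8.71 at 24 h, a difference of 2.87 at 6 h. Ripk2, the kinase downstream of the NOD receptors, read 9.11, 9.24 and 9.10 on the LZCM arrays and 11.61, 11.65 and 11.56 on the aSCM arrays at 6 h, and 8.79, 8.75 and 8.66 and 9.15, 9.10 and 8.90 at 24 h, with 2.45 and 0.32. Birc2, an inhibitor of apoptosis that acts in NF-kB signalling, differed by 2.07 at 6 h and -0.07 at 24 h. For these 3 genes the 6 h aSCM arrays were again highest.

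Inhibitors of cytokine and kinase signalling were among them. Socs1, which blocks Janus kinases, was above background on no LZCM array and was at least 3.85-fold higher in aSCM at 6 h. Cish, a related suppressor, was at least 2.56-fold higher. The phosphatases Dusp5 and Dusp10, which switch off mitogen-activated kinases, differed by 1.36 and 1.22 at 6 h and by -0.06 and 0.08 at 24 h. Spry2, an inhibitor of growth factor signalling, went from 1.71 to -0.20, and the stress sensors Gadd45a and Gadd45g from 2.07 to -0.48 and from 1.72 to -0.09. Frk, a Src-related kinase, went from 2.55 to -0.29.

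Interferon-inducible members numbered 6, with medians of 2.07 at 6 h and 0.04 at 24 h. Cmpk2, a mitochondrial nucleotide kinase, read 10.88, 10.40 and 10.92 on the LZCM arrays and 13.04, 12.99 and 12.68 on the aSCM arrays at 6 h, and 8.88, 8.72 and 8.76 and 8.57, 8.62 and 8.69 at 24 h. Its level was lower in both media at 24 h than in either at 6 h. Ifit2 differed by 2.34 at 6 h and 0.34 at 24 h, but its 24 h means, 6.62 in LZCM and 6.96 in aSCM, were near background. The guanylate-binding proteins Gbp2 and Gbp5 differed by 2.00 and 2.13 at 6 h and -0.24 and -0.06 at 24 h. Ifitm3, which blocks entry of viruses, differed by 1.21 and 0.43. All 4 of these members with a promoter in the table, namely Cmpk2, Gbp5, Gbp2 and Ifitm3, carried the paired GAAA and GAA core of the interferon-stimulated response element (GAAANNGAA on either strand), in capitals, as did 8.82% of protein-coding genes and 7.29% of the tested genes. Stretches around the motif are from RefSeq GRCr8 at Cmpk2 chr6:48802729-48802797 (+), Gbp5 chr2:233910810-233910878 (+), Gbp2 chr2:234005667-234005735 (+) and Ifitm3 chr1:205541764-205541832 (-), read on the gene's strand.
Cmpk2: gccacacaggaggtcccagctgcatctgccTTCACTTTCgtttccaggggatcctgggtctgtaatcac
Gbp5: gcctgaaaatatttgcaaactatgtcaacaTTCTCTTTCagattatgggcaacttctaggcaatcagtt
Gbp2: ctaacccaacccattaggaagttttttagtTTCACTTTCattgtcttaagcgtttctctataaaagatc
Ifitm3: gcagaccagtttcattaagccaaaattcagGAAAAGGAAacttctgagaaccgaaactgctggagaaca
The group was put together after its values were seen, so its share carries no test.

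Amino acid supply and tRNA charging contributed 15 members. Ass1, argininosuccinate synthase, which remakes arginine from citrulline, read 7.97, 7.99 and 7.90 on the LZCM arrays and 11.48, 11.57 and 11.62 on the aSCM arrays at 6 h, and 9.06, 9.25 and 8.94 and 8.97, 9.10 and 9.12 at 24 h. It was 12.1-fold above LZCM at 6 h and differed by -0.03 (log2) at 24 h. Slc7a1, the cationic amino acid carrier that imports arginine, read 8.73, 8.39 and 8.89 on the LZCM arrays and 10.66, 10.62 and 10.996 on the aSCM arrays at 6 h, and 7.85, 7.98 and 8.16 and 7.47, 7.79 and 7.95 at 24 h, with 2.09 at 6 h and -0.26 at 24 h. Chac1, which degrades glutathione, and Trib3, a pseudokinase that restrains ATF4, differed by 1.81 and 1.85 at 6 h and by -0.12 and 0.25 at 24 h. Asns, which makes asparagine, Shmt2, a mitochondrial serine-to-glycine enzyme, and Slc3a2, the heavy chain of amino acid exchangers, differed by 1.36, 1.53 and 1.48 at 6 h. At 24 h these 3 genes still differed by 0.38, 0.44 and 0.37. Over the 15 members the median was 1.40 at 6 h and 0.37 at 24 h, the highest 24 h median among the role groups.

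Aminoacyl-tRNA synthetases, which load each tRNA with its amino acid, were examined as a list after the values had been seen. Of 16 cytosolic synthetases tested, at 6 h the aSCM signal was called higher for 15 and lower for 1, and at 24 h higher for 13 and lower for 0, where the fit called 27.8% of genes higher and 35.3% lower at 6 h and 32.8% higher and 30.1% lower at 24 h. Members were Cars1 at 1.67, Eprs1 at 1.40, Yars1 at 1.27, Tars1 at 1.23, Sars1 at 1.21 and Aars1 at 1.19 (6 h, log2). The lowest at 6 h was Qars1, at -0.60. Over the 16 genes the median difference was 0.75 at 6 h and 0.25 at 24 h.

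**Figure D3:**
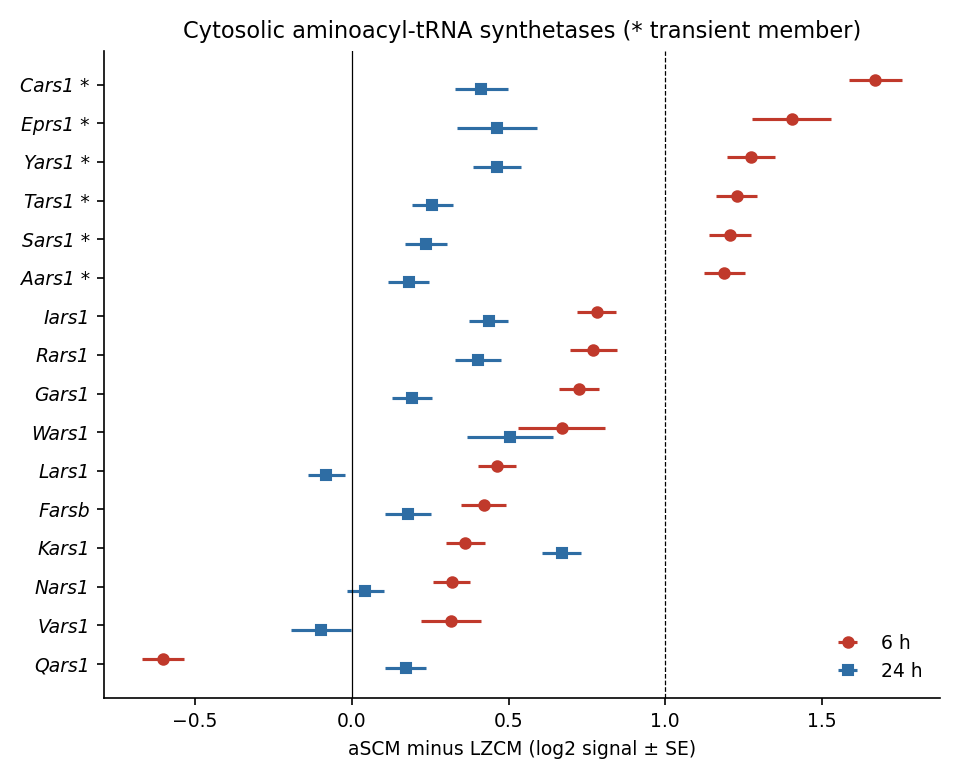
Difference in log2 signal between aSCM and LZCM with its standard error (horizontal axis) at 6 h (circles) and 24 h (squares) for 16 cytosolic aminoacyl-tRNA synthetases, with the members starred and a dashed line at the 6 h threshold of 1. The 6 members lie between 1.19 and 1.67 at 6 h, and Qars1 alone is below 0 then.

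A composite motif of C/EBP and ATF proteins (TGATGNAA on either strand) is known for ATF4 binding. Of the 14 members of this role group with a promoter in the table, 7 carried the motif, as did Trib3, against 3.33% of protein-coding genes, 2.22% of the tested genes and 11 of 186 members (5.91%). Capitals mark it in 6 of these genes, in stretches from RefSeq GRCr8 at Slc7a1 chr12:11664428-11664495 (+), Trib3 chr3:161275517-161275584 (-), Chac1 chr3:126795934-126796001 (+), Tars1 chr2:62114792-62114859 (-), Aars1 chr19:55908340-55908407 (+) and Ppp1r15b chr13:47129792-47129859 (+), read on the gene's strand.
Slc7a1: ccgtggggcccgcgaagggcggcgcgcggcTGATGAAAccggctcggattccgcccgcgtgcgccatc
Trib3: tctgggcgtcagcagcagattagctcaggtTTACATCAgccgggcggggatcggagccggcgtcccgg
Chac1: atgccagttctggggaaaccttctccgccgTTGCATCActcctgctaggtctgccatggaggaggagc
Tars1: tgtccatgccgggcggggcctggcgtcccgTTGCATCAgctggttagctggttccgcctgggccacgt
Aars1: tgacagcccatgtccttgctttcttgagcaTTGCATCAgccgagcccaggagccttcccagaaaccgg
Ppp1r15b: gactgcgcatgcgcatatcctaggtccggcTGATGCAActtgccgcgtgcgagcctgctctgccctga
The group was assembled with its values known, so its share carries no test. Chac1, which degrades glutathione, and Ppp1r15b were placed in it although the name of the role does not cover them. Both carried the motif, so the share of 7 of 14 depends on that placing. Whether ATF4 binds there was not tested.

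Ribosome production and RNA processing gave the largest role group, with 33 members and medians of 1.24 at 6 h and 0.21 at 24 h. Pak1ip1, a 60S assembly factor, read 9.26, 9.23 and 9.12 on the LZCM arrays and 11.01, 10.94 and 10.73 on the aSCM arrays at 6 h, and 9.03, 9.08 and 9.28 and 9.39, 9.26 and 9.44 at 24 h. Rpf2, which helps place the 5S particle, read 9.41, 9.37 and 9.48 on the LZCM arrays and 10.91, 10.96 and 11.05 on the aSCM arrays at 6 h, and 9.41, 9.48 and 9.46 and 9.69, 9.56 and 9.73 at 24 h. Gnl3, the nucleolar GTPase nucleostemin, read 10.14, 9.95 and 10.20 on the LZCM arrays and 11.26, 11.25 and 11.82 on the aSCM arrays at 6 h, and 9.93, 10.12 and 10.06 and 9.71, 9.82 and 10.01 at 24 h. The 6 h aSCM arrays were the 3 highest for each of them, with differences of 1.69, 1.56 and 1.35. Subunits of RNA polymerase I and its selectivity factor were also members, Polr1f at 1.33, Polr1e at 1.27, Taf1d at 1.33 and Taf1c at 1.00, as were the box C/D snoRNP proteins Nop56 and Nop58 at 1.28 and 1.04. Gar1, of the H/ACA particles, Ppan, Rrp9 and Rrs1, further nucleolar factors, stood at 1.24, 1.30, 1.22 and 1.18. Samd4a, an RNA-binding repressor of translation placed with RNA processing, stood at 2.47.

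In a list of 34 tested ribosome biogenesis genes, the aSCM signal was called higher for 31 and lower for 1 at 6 h, and higher for 19 and lower for 4 at 24 h, where 27.8% of genes were called higher and 35.3% lower at 6 h and 32.8% and 30.1% at 24 h. The list's median difference was 0.92 at 6 h and 0.23 at 24 h; 8 of the 34 reached 1 at 6 h, and 7 were members. An E-box stood in the promoters of 8 of 30 members of the role group, against 7.27% of protein-coding genes and 9.37% of the tested genes. It also stood in 4 of 17 members among transcription factors and chromatin regulators, and in 22 of 186 members in all. It is in capitals in these stretches of RefSeq GRCr8 at Pak1ip1 chr17:23959124-23959189 (-), Rpf2 chr20:45205958-45206023 (-), Gnl3 chr16:6219772-6219837 (-) and Aatf chr10:69889772-69889837 (-), read on the gene's strand.
Pak1ip1: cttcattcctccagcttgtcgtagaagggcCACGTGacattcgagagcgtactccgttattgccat
Rpf2: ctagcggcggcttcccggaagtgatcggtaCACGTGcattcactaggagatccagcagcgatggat
Gnl3: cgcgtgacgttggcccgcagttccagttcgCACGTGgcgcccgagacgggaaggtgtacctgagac
Aatf: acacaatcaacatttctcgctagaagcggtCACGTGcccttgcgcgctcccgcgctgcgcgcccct
This group too was put together after its values were seen, so its share carries no test.

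Metabolic enzymes made a group of 17. Plpp3, which removes the phosphate of lysophosphatidic acid and related lipids, read 9.25, 9.47 and 9.21 on the LZCM arrays and 13.39, 13.40 and 13.29 on the aSCM arrays at 6 h, and 10.47, 10.60 and 10.34 and 10.08, 9.96 and 10.12 at 24 h. It was 16.6-fold higher in aSCM at 6 h and -0.42 (log2) against LZCM at 24 h. Acsl1, which activates long-chain fatty acids, went from 1.69 to 0.48, Fabp4, a fatty acid binding protein, from 1.37 to 0.24, and Dio3, which inactivates thyroid hormone, from 1.98 to 0.27. Chka, choline kinase, went from 1.29 to -0.49. The nuclear pore proteins Nup153 and Nup54 and the importin Kpna1 differed by 1.32, 1.26 and 1.03 at 6 h. The 62 genes with no role assigned had medians of 1.31 and 0.13, and among the largest were Trim35 at 2.66 and Niban2 at 2.51.

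The members made up 2.16% of the probes tested, and their numbers in the pathway lists are given as a description. Over all genes the fit called 27.8% higher and 35.3% lower at 6 h, and 32.8% and 30.1% at 24 h. Of 34 tested genes of cytokines and growth factors, 13 were members, and the fit called 28 higher and 2 lower at 6 h but 15 higher and 7 lower at 24 h. Of 34 immediate-early and inducible transcription factors, 11 were members, with 27 higher and 1 lower at 6 h and 14 higher and 12 lower at 24 h. Feedback inhibitors gave 5 members of 31 (25 higher and 4 lower, then 17 and 7). None of 29 inflammatory enzymes, adhesion and tissue remodelling genes was a member, and 24 were called higher and 3 lower at 6 h (23 and 4 at 24 h); 20 reached 1 at 6 h, and 18 of these were still at least 0.5 above LZCM at 24 h. Toll-like receptor and NF-kB genes gave 2 members of 29 (18 higher and 6 lower, then 21 and 0), chemokines 2 of 23 (17 and 1, then 14 and 4), and interferon-inducible genes 4 of 41 (29 and 5, then 29 and 3). Hypoxia and glycolysis genes gave Adm and Ndrg1 (6 h difference 1.72) of 24 (11 and 5, then 20 and 2). Amino acid and unfolded protein genes gave 7 of 27 (19 and 6, then 14 and 7). Microglial receptors gave Adora2b and Ccrl2 of 33 (10 and 14, then 17 and 8), and cell cycle genes gave none of 28 (3 and 20, then 3 and 25). In other lists too, some genes that reached 1 at 6 h were still at least 0.5 above LZCM at 24 h. Feedback inhibitors gave 12 of 20, chemokines 10 of 13 and microglial receptors 5 of 7. Toll-like receptor and NF-kB genes gave 8 of 10 and interferon-inducible genes 10 of 14. Cytokines and growth factors gave 6 of 20 and inducible transcription factors 7 of 20. Amino acid genes gave 3 of 11, ribosome genes 1 of 8 and hypoxia genes 0 of 2. Over all probes it was 314 of 615.

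Promoter motifs were compared with those of the 314 probes that were high at both times (a 6 h difference of at least 1 and a 24 h difference of at least 0.5), of which 185 genes had a promoter in the table. AP-1 (TGANTCA) was in 3.23% of member promoters, 13.5% of those still high at 24 h, 5.25% of the 7158 tested genes and 6.65% of all. In that order, NF-kB stood at 4.84%, 12.97%, 5.06% and 4.38%, and the paired interferon response core at 4.84%, 12.4%, 7.29% and 8.82%. The composite motif was at 5.91%, 3.24%, 2.22% and 3.33%, and the E-box at 11.8%, 14.1%, 9.37% and 7.27%. Both strands were searched and motifs could overlap. These shares are a description, and absence says only that the letters are not in this window.

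**Figure D4:**
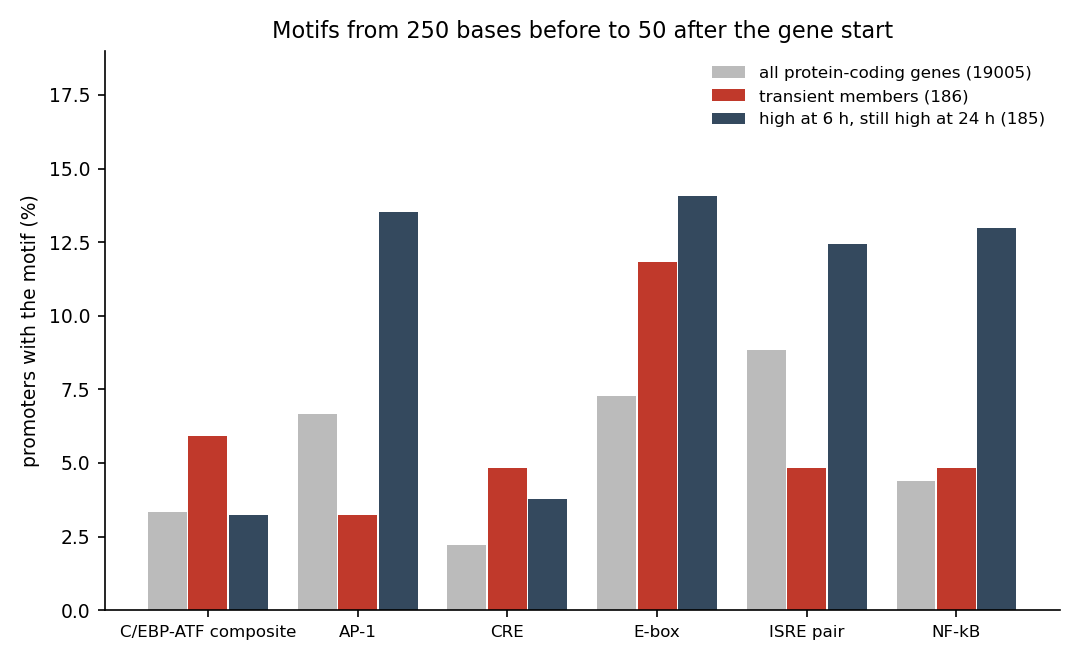
Share of promoters with each of 6 motifs (vertical axis, percent) in 19005 protein-coding genes, 186 member genes and 185 genes high at both times. AP-1, NF-kB and the paired interferon response core (ISRE pair) are at 3.23% to 4.84% in the members and 12.4% to 13.5% in the genes high at both times.

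In aSCM all 267 members were lower at 24 h than at 6 h, with a median difference of -1.36 (from -4.79 to -0.43). In LZCM the change from 6 h to 24 h had a median of -0.10 (from -1.95 to 1.16), against -0.01 over all probes tested. The limma test called 27 members higher at 24 h in LZCM (10.1%, against 19.9% of the probes tested) and 90 lower (33.7%, against 19.8%), and it did not call 150. Both LZCM groups entered the rule, the 6 h arrays through the early difference and the 24 h arrays through the late one, so these calls are a description and nothing is read from them. Without the 17 members above background on no LZCM array, the counts were 27 higher and 90 lower of 250. Without normalization between arrays, 8 were called higher and the median LZCM change was -0.24. At least 0.5 in size were 25 lower and 9 higher. The aSCM level at 24 h minus the LZCM level at 6 h had a median of 0.03, and was at least 0.5 above for 9 members and at least 0.5 below for 23.

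The control level of some members differed between the times, given here with no test. The LZCM level at 24 h minus that at 6 h was -1.95 ± 0.12 (SE) for Cmpk2 and -1.03 ± 0.07 for Ccrl2. It was -1.10 for Trim54, -0.90 for Pdgfa and -0.90 for Tmbim1. For Plpp3 and Ass1 it was 1.16 ± 0.08 and 1.13 ± 0.08, so that the control arrays at 24 h were themselves above those at 6 h. Mgp, a matrix protein that inhibits calcification, and Flrt3, an adhesion protein, stood at 0.88 and 0.83. Myc stood at 0.62, Gdf15 at 0.58 (0.38 without normalization between arrays) and Atf4 at -0.51.

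**Figure D5:**
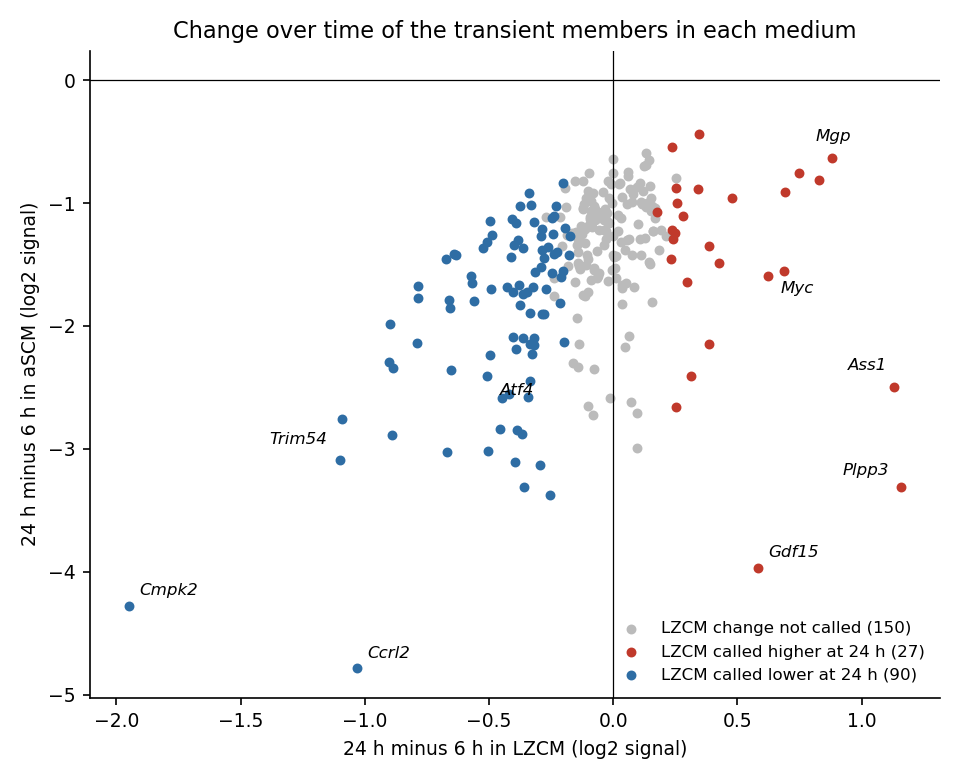
Change in log2 signal from 6 h to 24 h in LZCM (horizontal axis) and in aSCM (vertical axis) for each of the 267 members, coloured by the limma call in LZCM (27 higher, 90 lower, 150 not called). All members lie below 0 in aSCM, and most lie within 0.5 of 0 in LZCM, with Cmpk2 at -1.95 and Plpp3 at 1.16 as the extremes.

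For the probes high at both times, the median LZCM change was -0.37, with 9 called higher (2.87%) and 209 lower (66.6%). Of all probes tested, 19.9% were called higher and 19.8% lower. The 34 probes that were high at 6 h and at least 0.5 below LZCM at 24 h had a median of 0.35. These classes differ by a rule on the 24 h LZCM arrays. A low LZCM signal at 24 h favours the class high at both times, and a high one favours the class below LZCM. The gap between them was therefore not tested, and nothing is read from it.

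Some member genes had further probes on the array, 11 in all, of which 7 were tested. At 6 h the fit called 6 of the 7 higher in aSCM and 1 lower, where it called 25.9% and 32.2% of the probes tested. For Ripk2 the other probe differed by 2.11 at 6 h and 0.55 at 24 h, beside 2.45 and 0.32 for the member. For Tars1 it differed by 1.51 and 0.61, for Creb1 by 1.25 and 0.56, for Ier5 by 1.22 and 0.51 and for Zzz3 by 0.73 and 0.45. Sqstm1, an autophagy receptor, had probes that disagreed: the member differed by 1.46 and 0.11, one further probe by 1.18 and 0.71, and the other by -0.26 and 0.76, so no direction at 6 h is given for this gene. The call lower at 6 h was absent with cyclic loess or with scaling to the 75th percentile. In these 7 probes the 24 h difference ran from 0.447 to 0.76, and that of Zzz3 was the one under 0.5. The choice of probes shaped this range. A probe that reached 1 at 6 h was a further probe only if its 24 h difference was at least 0.5 in size. Both probes of Plekhm2 were members and are left out here. Nothing is read from the 24 h range.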

How the data were processed

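The authors deposited 1 log2 signal per probe and array, not normalized between arrays, in a table of the whole series; base 2 was inferred, since the highest values match the upper limit of a 16-bit scanner. The submitters' processing notes name R 2.9.1; whether background was subtracted is not given in the sources used here. From these values the 12 arrays were quantile normalized together with no background correction (limma 3.58.1, R 4.3.3). A probe was above background on an array when its log2 signal exceeded, at a one-sided p under 0.05, a normal distribution at the mode of that array with the spread of the signals below the mode; 12351 probes were so on at least 3 arrays and were tested. One limma fit of 4 group means (lmFit, eBayes; 8 residual and 9.38 prior degrees of freedom; median standard error 0.08 for the time change) gave Benjamini-Hochberg adjusted p-values over all 12351 probes, called under 0.05; counts over gene lists take each gene's brightest probe. Precision is limited by the 3 arrays per group. Probes were named from the platform annotation and updated through RefSeq gene IDs: 13793 probes have 1 symbol and 8730 none here, 13752 identifiers matched and no symbol changed.

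The members and the lists were chosen with earlier results of these data known; the role groups and the synthetase list were chosen after the values were seen. Genes named are the 25 with the highest 6 h difference, members in a pathway list, members and probes next to the thresholds, the 5 largest rises and falls in LZCM (1 of the rises is not reported here), members above background on no LZCM array, and examples of the role groups, chosen after their values were seen. Replicate numbers are shared by the labels of the 4 groups. The deviations of same-numbered arrays correlated at -0.12 to 0.29, and those of differently numbered arrays at -0.25 to 0.21. The numbers were not taken to pair arrays, and whether arrays of 1 number shared a batch was not tested. Alternatives were normexp background correction, cyclic loess, 75th percentile scaling, no normalization, no filter, the LZCM arrays alone, a replicate block, the authors' own normalized log2 table and each array left out.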

Additional observations from a re-analysis of the deposited data

Results flagged for a closer look

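For 7 further probes of member genes, the difference between aSCM and LZCM changed from 6 h to 24 h by the interaction of medium and time in the limma fit. These probes were not used to choose the members, but they were read on the same arrays, and probes that met the rule were left out of them. The share of all probes tested that the interaction called is not given here, so nothing is read from this count. The change was -1.56 for Ripk2, -0.89 for Tars1, -0.71 for Ier5, -0.69 for Creb1 and -0.28 for Zzz3 (log2). Sqstm1 had one probe at -0.47 and another at 1.02, in opposite directions. Whether these Sqstm1 probes read different transcripts was not tested.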

How the results depend on the processing

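The median LZCM change was -0.14 with normexp and -0.24 without normalization, and the median aSCM change was -1.60 with normexp, -1.46 with loess and -1.465 without normalization; the cause was not tested. Members called higher over time in LZCM numbered 8 without normalization, and further probes called lower at 6 h numbered 0 with loess and with 75th percentile scaling. Narrowing the 24 h threshold to 0.25, chosen after seeing the data, left 159 members. The rule found 339 probes with normexp (226 shared, 84.6% of the members and 66.7% of the 339), 317 with loess (260 shared), 302 with percentile scaling (256), 209 without normalization (178) and 271 in the authors' normalized table (257). Percentile scaling moved the median of all probes tested to 0.10 at 6 h and 0.13 at 24 h. With each array left out in turn, members ranged from 265 to 280, LZCM calls from 22 to 29 higher and 75 to 91 lower, the median LZCM change from -0.0997 to -0.0891, and the aSCM median from -1.37 to -1.35; further probes stayed at 6 and 1, and list calls ran from 240 to 247 higher and 63 to 68 lower at 6 h and from 196 to 210 and 80 to 86 at 24 h. With the replicate number as a block, 29 members were called higher and 90 lower in LZCM. Over 82 named members and all alternatives together, an LZCM call was lost 39 times and gained 15 times. The other 1586 results were unchanged, which includes members called in neither fit, so 1586 is not a count of kept calls. Chac1, Trib3, Maff, Jag1, Edn1, Gadd45g, Frk and Spry2 lost theirs without 1 LZCM array. Dim probes limit what can be said of 20 members.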
